A study of Mus musculus with 6 samples.

Results

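The genes described here are 28 genes of cholesterol synthesis and sterol sensing, taken by their symbols out of 24594 genes in the count table, with earlier results of these data known. All 28 were found in the table by their symbol, and all 28 passed the filter on low counts. They comprise 8 genes of the mevalonate steps, 3 that lead from farnesyl diphosphate to lanosterol, 9 that turn lanosterol into cholesterol, 4 of the sterol-sensing machinery and 4 of sterol uptake, transport and esterification.

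Cells build cholesterol from acetyl-CoA by way of mevalonate, isoprenoid diphosphates, squalene and lanosterol. When sterol runs low in the endoplasmic reticulum, the escort protein SCAP carries the transcription factor SREBP2 (gene Srebf2) to the Golgi, where it is cut and released to the nucleus to switch on these enzymes; when sterol is plentiful, the INSIG proteins hold SCAP back. Small-intestinal enterocytes both make cholesterol and absorb it from the lumen, and they esterify it for export in chylomicrons.

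The RNA came from mouse small-intestinal organoids, which are cultured epithelial mini-guts, started from single cells and cultured for 96 h, by which time crypts and villi were present. They then received NIBR-LTSi at 5 uM, an inhibitor of the LATS kinases of the Hippo pathway, or a corresponding amount of its solvent DMSO, for 24 h. Each group has 3 libraries, and the labels name no strain, age, animal or separate culture, so each p-value speaks only for the variation among these libraries, and that variation may be technical. Total counts ranged from 18395427 to 26767043 per library.

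The labelled tissue was checked against marker genes. A marker rose or fell here if the edgeR quasi-likelihood test used below gave an adjusted p under 0.05. By that measure 22.8% of all tested genes rose and 19.2% fell. Summed enterocyte markers (8 genes, among them Alpi, Sis and Vil1) lay at 47550 to 49340 CPM (read counts scaled to a common library size with TMM factors) in the DMSO libraries and at 34030 to 36150 CPM in the NIBR-LTSi libraries, and 2 of the 8 rose while 6 fell. Markers of dividing cells (8 genes) summed to 451 to 484 CPM with DMSO and 711 to 791 CPM under NIBR-LTSi, and 7 of the 8 rose. Mki67, the 1 not called (adjusted p = 0.0694 in that test), was 1.55-fold higher, with all NIBR-LTSi libraries above all DMSO libraries. Summed levels with DMSO and with NIBR-LTSi were 2865 to 3225 and 3241 to 3568 CPM for 7 goblet markers (2 rose, 1 fell), 565 to 622 and 454 to 511 CPM for 5 Paneth markers (2 rose, 2 fell), 377.4 to 392.4 and 269 to 283 CPM for 5 enteroendocrine markers (3 fell), and 149 to 159 and 158 to 169.9 CPM for 5 crypt stem markers (1 rose, 2 fell). Only 2 of the 7 goblet markers had a positive log2 fold change: Clca1 (mean 234 CPM with DMSO and 792 CPM under NIBR-LTSi) and Zg16 (264 and 350 CPM). Most of the crypt stem sum was Smoc2 (means of 127 and 146 CPM), while Olfm4 (17.5 and 8.96 CPM) and Lgr5 (3.05 and 1.89 CPM) fell. The 5 tuft markers stayed under 5 CPM in sum. Defining markers of other tissues were at or near 0: the 5 mesenchyme markers summed to at most 0.189 CPM, Dcn, Cd3e, Cdh5 and Kdr had no count in any library, and the immune sum of at most 2.71 CPM was nearly all Csf1r. The 3 endothelial markers summed to at most 0.614 CPM, all of it Pecam1 (means of 0.61 CPM with DMSO and 0.32 CPM under NIBR-LTSi, not called). The part of these shifts in epithelial cell types in the cholesterol results was not tested, and in such bulk samples fewer cells of a type and less RNA per cell cannot be told apart.

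Because SREBP factors act at promoters together with the CCAAT-binding factor NF-Y, the promoters of the 28 genes were examined before their levels. RefSeq promoter windows (250 bases before to 50 bases after the transcription start, build GRCm38.p6) were matched for 23 of the 28 genes, and Fdps, Fdft1, Sqle, Stard4 and Soat2 had no entry. Both strands were searched for CCAAT, the NF-Y box, which reads ATTGG on the opposite strand; for TCACNCCAC, a strict form of the sterol regulatory element bound by SREBP; and for GGAATG, the core bound by the TEAD factors that partner YAP and TAZ. A gene with several start sites counted as matched if any of its windows held the motif, and no match overlapped a match of another motif. A match is a description of letters and shows no binding.

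The NF-Y box occurred in 21 of the 23 promoters (91.3%), against 43.3% of the 10052 tested genes that had a promoter window. Acat2 and Scap were the 2 without it. By response, it was present in 10 of 12 genes that rose, 4 of 4 that fell and 7 of 7 that were not called. The strict sterol regulatory element was found in 1 gene, Hmgcs1 (4.35%, against 1.39% of tested genes), and the TEAD core in 1 gene, Npc1l1 (4.35%, against 14.5%). The upstream stretches below show these arrangements, with every motif match in capitals and each run ending at the base before the start site. Hmgcs1 (chr13:119690101-119690350, plus strand) is shown because it alone holds the strict sterol regulatory element, with NF-Y boxes on both sides of it. Insig1 (chr5:28071162-28071411, plus strand) and Srebf2 (chr15:82147119-82147268, plus strand) are 2 of the 4 sensing genes and held 1 NF-Y box each. Idi1 (chr13:8885486-8885605, plus strand), Nsdhl (chrX:72918401-72918520, plus strand) and Msmo1 (chr8:64733579-64733698, minus strand) are enzymes with repeated boxes close to the start, and Npc1l1 (chr11:6230246-6230365, minus strand) holds the TEAD core.
Hmgcs1: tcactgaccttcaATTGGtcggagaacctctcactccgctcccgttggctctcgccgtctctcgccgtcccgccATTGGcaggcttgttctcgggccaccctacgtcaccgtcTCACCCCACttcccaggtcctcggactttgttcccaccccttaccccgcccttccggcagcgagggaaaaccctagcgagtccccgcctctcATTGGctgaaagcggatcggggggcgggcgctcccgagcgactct
Insig1: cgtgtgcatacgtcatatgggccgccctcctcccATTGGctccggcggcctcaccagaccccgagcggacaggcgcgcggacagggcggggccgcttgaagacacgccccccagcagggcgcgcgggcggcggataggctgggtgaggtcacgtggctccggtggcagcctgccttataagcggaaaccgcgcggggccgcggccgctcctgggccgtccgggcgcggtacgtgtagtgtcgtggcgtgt
Srebf2: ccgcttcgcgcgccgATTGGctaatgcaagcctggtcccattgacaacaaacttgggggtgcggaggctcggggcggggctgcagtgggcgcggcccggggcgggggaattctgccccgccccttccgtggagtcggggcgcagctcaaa
Idi1: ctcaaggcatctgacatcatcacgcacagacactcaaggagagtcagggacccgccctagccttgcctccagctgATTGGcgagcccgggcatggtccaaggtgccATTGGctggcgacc
Nsdhl: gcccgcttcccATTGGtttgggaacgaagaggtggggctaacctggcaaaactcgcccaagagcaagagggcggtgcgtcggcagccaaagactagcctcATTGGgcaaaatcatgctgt
Msmo1: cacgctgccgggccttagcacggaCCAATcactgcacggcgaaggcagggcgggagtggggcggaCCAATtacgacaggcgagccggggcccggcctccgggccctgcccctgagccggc
Npc1l1: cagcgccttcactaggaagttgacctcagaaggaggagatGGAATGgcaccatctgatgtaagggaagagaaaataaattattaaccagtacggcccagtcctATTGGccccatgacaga

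**Figure D1:**
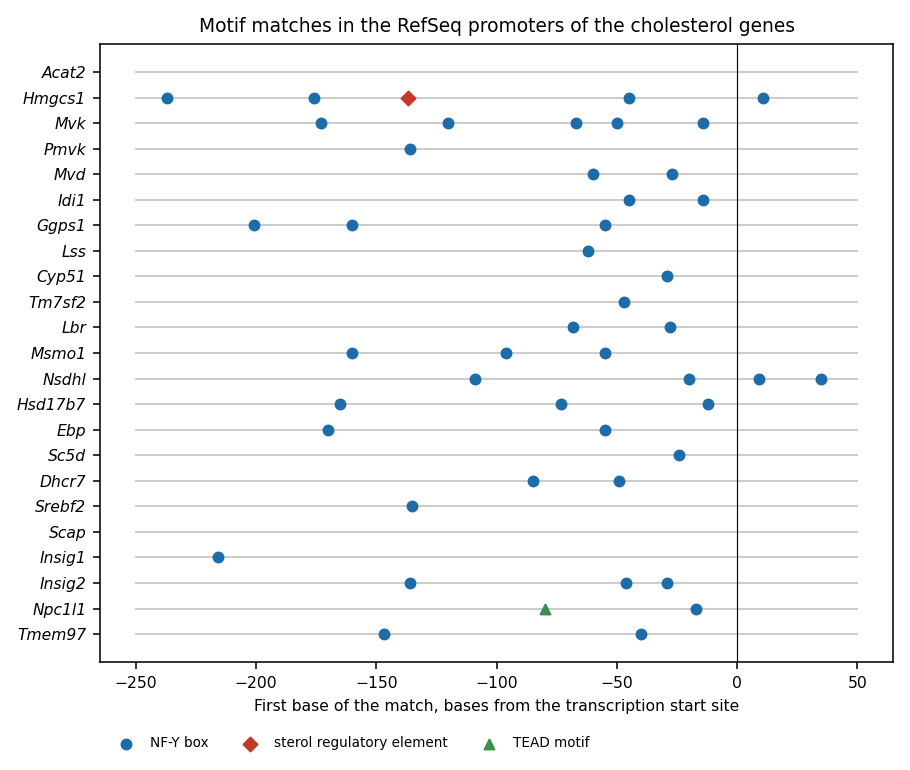
Each line is the RefSeq promoter of 1 of the 23 matched genes, plotted from 250 bases before to 50 bases after the transcription start site (x axis, bases), and each point is the first base of a motif match in any of the gene's windows. NF-Y boxes (circles) appear on 21 of the 23 lines, the strict sterol regulatory element (diamond) on that of Hmgcs1 and the TEAD core (triangle) on that of Npc1l1.

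With NIBR-LTSi most of the 28 genes changed by small, closely replicated amounts, and both directions occurred. Of the 28, 15 rose, 5 fell and 8 were not called (edgeR quasi-likelihood test, Benjamini-Hochberg adjusted p under 0.05 over 12592 genes, used for all adjusted p-values below). The enzymes Acat2 (1.60-fold), Idi1 (1.34-fold), Nsdhl (1.34-fold) and Sqle (1.31-fold), the sterol carrier Stard4 (1.43-fold) and the cholesterol importer Npc1l1 (1.27-fold) were the 6 strongest rises. The falls were in Insig1, Insig2, the esterifying enzyme Soat2 and the synthesis genes Hmgcs1 and Sc5d. The background was high in this comparison: 42% of all tested genes were called, 22.8% higher and 19.2% lower. Among the 5858 genes with a mean level at least that of the lowest of the 28 (30.2 CPM), 50.6% were called, 22.7% higher and 27.9% lower.

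The NIBR-LTSi libraries lay wholly above the DMSO libraries in 16 of the 28 genes (28% of all tested genes did so) and wholly below in 6 (24.5% of all tested genes), against 52.5% of all tested genes in either direction. The median log2 fold change over the 28 was 0.12, against 0.02 over all tested genes. Their median absolute log2 fold change was 0.19, against 0.19 over all tested genes and 0.15 over the 5858 genes at or above 30.2 CPM, where the median log2 fold change was -0.02. Only Acat2 changed by over 1.5-fold (3.57% of the 28, against 13.3% of tested genes). In all, the 28 genes took 0.704 to 0.709% of the counts in the DMSO libraries and 0.772 to 0.781% in the NIBR-LTSi libraries. These are shares of raw library totals, without TMM factors. Scaling by library totals alone raised the log2 fold changes of all genes by a median of 0.04. Across 15 alternative settings 10 to 17 of the 28 rose and 5 or 6 fell; 9 of the 15 rises and all 5 falls were called in every setting, and the calls of the other 6 are qualified where they appear below.

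**Figure D2:**
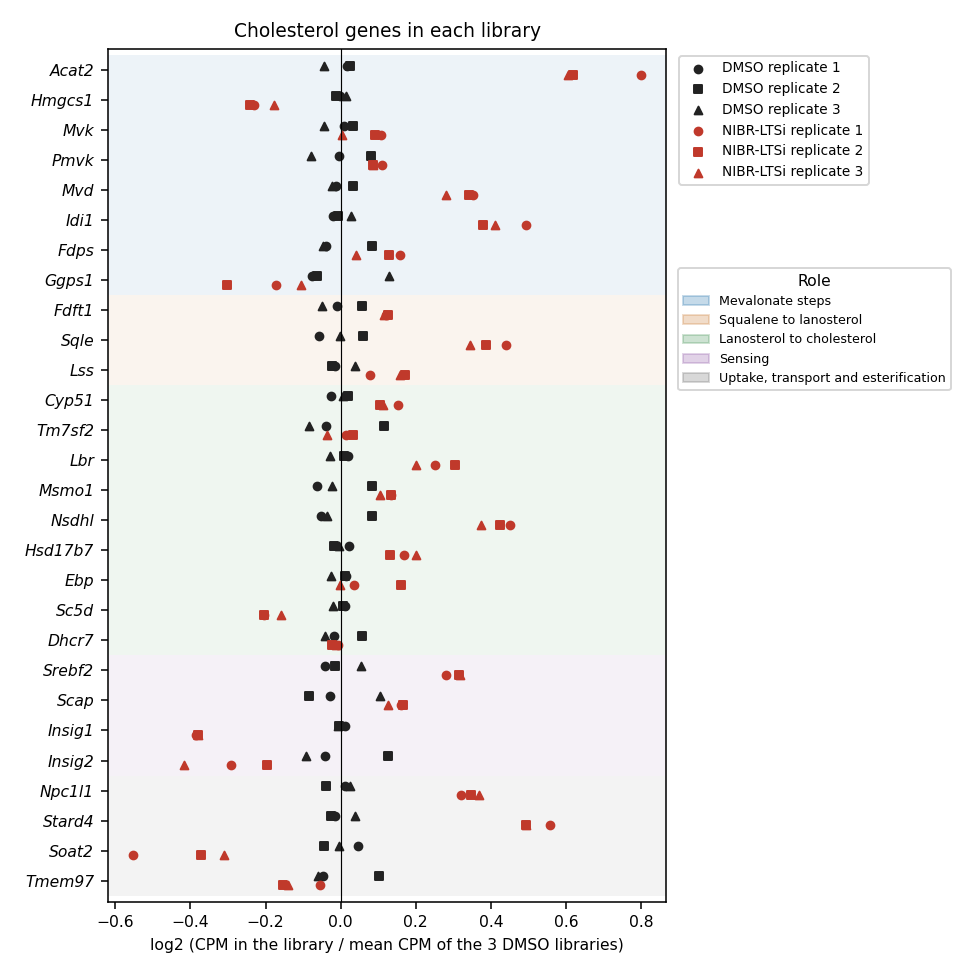
Each row is 1 of the 28 genes in pathway order, and each point is 1 library, placed by log2 of its CPM over the mean CPM of the 3 DMSO libraries (x axis). DMSO points (black) cluster around 0, NIBR-LTSi points (red) lie wholly to the right in 16 genes and wholly to the left in 6, and shading marks the role groups.

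The mevalonate steps split, with 3 of 8 genes higher, 1 lower and 4 not called. That is 50% called, against 42% of all tested genes and 50.6% of the genes at or above 30.2 CPM. Acat2 (Entrez 110460; chromosome 17, 12943042 to 12960725), the cytosolic thiolase that joins acetyl-CoA units at the entry of the pathway, was at 93.1, 93.7 and 89.3 CPM in DMSO replicates 1 to 3 and at 160.1, 141 and 140.02 CPM in the corresponding NIBR-LTSi libraries. This was the largest change of the 28, 0.68 on the log2 scale with an SE of 0.05 (adjusted p = 1.62e-06; SEs follow the ± sign below), and NIBR-LTSi replicate 1 stood highest. The next enzyme, Hmgcs1 (Entrez 208715; chromosome 13, 119690351 to 119708260), which makes HMG-CoA, was at 742, 738 and 752 CPM with DMSO and at 634, 629.9 and 658 CPM under NIBR-LTSi. Its log2 fold change was -0.22 ± 0.03 (adjusted p = 0.00025), so that neighbouring steps at the head of the pathway moved in opposite directions without overlap of their libraries in either gene. Hmgcs1 shares 12.1% of its exon bases with Gm48342 on the opposite strand, and the strand setting of the counting is not given.

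Mvd, which decarboxylates mevalonate diphosphate to isopentenyl diphosphate, was at 136, 140.4 and 135 CPM with DMSO and at 175, 174 and 167 CPM under NIBR-LTSi (log2 fold change 0.32 ± 0.04, adjusted p = 4.47e-05). Idi1 (chromosome 13, 8885606 to 8892396), the isomerase that interconverts the isoprenoid building units, was at 84.3, 85.2 and 87.1 CPM with DMSO and at 120.3, 111 and 114 CPM under NIBR-LTSi (log2 fold change 0.43 ± 0.04, adjusted p = 1.23e-05). Both genes had all NIBR-LTSi libraries above all DMSO libraries and were called in all 15 alternatives.

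The kinases Mvk and Pmvk, which phosphorylate mevalonate in succession, were not called: Mvk had a log2 fold change of 0.07 (95% confidence interval -0.03 to 0.17) and Pmvk 0.09 (-0.01 to 0.20; adjusted p = 0.136). Fdps, which makes farnesyl diphosphate, was at 277, 302 and 276 CPM with DMSO and 318, 312 and 293 CPM under NIBR-LTSi (log2 fold change 0.11 ± 0.05, adjusted p = 0.0750). Both Pmvk and Fdps were called higher with library totals only (adjusted p = 0.0307 and 0.0120), after an adjustment for gene width (0.0104 and 0.00568) and without DMSO replicate 2 (0.0360 and 0.0169), the DMSO library in which each stood highest. Ggps1, at the branch that makes geranylgeranyl diphosphate for protein prenylation, was at 32.7, 33.1 and 37.7 CPM with DMSO and 30.6, 27.98 and 32.1 CPM under NIBR-LTSi (log2 fold change -0.19 ± 0.07, adjusted p = 0.0558). It was called lower in 5 of the 15 alternatives: with the replicate block (adjusted p = 0.0338), DESeq2 size factors (0.0350), no low-count filter (0.0463) and the width adjustment (0.0198), and without NIBR-LTSi replicate 3 (0.0405). In the GENCODE M21 annotation 26.7% of the exon bases of Fdps are shared with Gm43738, a gene on the same strand, so its count is uncertain.

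All 3 genes between farnesyl diphosphate and lanosterol rose, as did 22.8% of all tested genes. Sqle (Entrez 20775; chromosome 15, 59315092 to 59331193), the squalene epoxidase and an oxygen-requiring control point of the pathway, was at 222, 241 and 230.4 CPM with DMSO and at 313, 302 and 293 CPM under NIBR-LTSi. The rise in Sqle was 0.39 ± 0.04 on the log2 scale (adjusted p = 1.69e-05), and the lowest NIBR-LTSi library exceeded the highest DMSO library. Fdft1, the squalene synthase, was at 232, 242 and 225 CPM with DMSO and at 253, 254 and 253 CPM under NIBR-LTSi (log2 fold change 0.12 ± 0.04, adjusted p = 0.0231). Lss, which closes squalene epoxide into lanosterol, was at 256, 255 and 266 CPM with DMSO and at 274, 292 and 289 CPM under NIBR-LTSi (log2 fold change 0.14 ± 0.04, adjusted p = 0.0138).

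Changes in Fdft1 and Lss were about 1.09-fold and 1.10-fold and depended on the setting, although neither gene's groups overlapped. For Fdft1 the call was lost in DESeq2 (adjusted p = 0.0819) and with DESeq2 size factors (0.0628). It was also lost without DMSO replicate 1 (0.0897) or 3 (0.0727) and without NIBR-LTSi replicate 1 (0.0579), 2 (0.120) or 3 (0.0764). Fdft1 shares 18.3% of its exon bases with Ctsb on the opposite strand, and the strand setting of the counting is not given in the sources used here. For Lss the call was lost after the width adjustment (adjusted p = 0.570) and on leaving out DMSO replicate 1 (0.0657) or NIBR-LTSi replicate 2 (0.110) or 3 (0.0727).

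From lanosterol to cholesterol, 5 of 9 genes rose, 1 fell and 3 were not called. That is 66.7% called, against 42% of all tested genes and 50.6% of the genes at or above 30.2 CPM. Nsdhl (Entrez 18194; chromosome X, 72918521 to 72958528), a dehydrogenase that acts with Msmo1 and Hsd17b7 to strip methyl groups from the sterol ring, was at 152, 167 and 153 CPM with DMSO and at 215, 211 and 204 CPM under NIBR-LTSi (log2 fold change 0.42 ± 0.04, adjusted p = 1.66e-05). Its partners in that step changed less: Hsd17b7 was at 79.5, 77.5 and 78.1 CPM with DMSO and 88.1, 85.8 and 90.2 CPM under NIBR-LTSi (log2 fold change 0.17 ± 0.04, adjusted p = 0.00746). Msmo1 was at 328, 363 and 337 CPM with DMSO and 376, 376 and 368 CPM under NIBR-LTSi (log2 fold change 0.12 ± 0.04, adjusted p = 0.0309). No test compared these 3 genes with each other, but the 95% confidence interval of Nsdhl (0.32 to 0.52) lay above those of Hsd17b7 (0.07 to 0.26) and Msmo1 (0.03 to 0.22).

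The Msmo1 call was lost in DESeq2 (adjusted p = 0.0840), with DESeq2 size factors (0.0769) and when gene width was adjusted for (0.216). It was also lost without DMSO replicate 1 (0.160) or 3 (0.0719) and without NIBR-LTSi replicate 1 (0.0791), 2 (0.149) or 3 (0.0693). The Hsd17b7 call was lost without NIBR-LTSi replicate 3 (0.0568). Cyp51, the demethylase that starts on lanosterol, was at 584, 604 and 598 CPM with DMSO and at 662, 640.2 and 644 CPM under NIBR-LTSi (log2 fold change 0.12 ± 0.03, adjusted p = 0.00973), a call that was lost without DMSO replicate 1 (0.0626) and without NIBR-LTSi replicate 2 (0.0601).

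The step after Cyp51 can be carried out by either of 2 sterol reductases. Lbr, which is also a lamin-binding protein of the inner nuclear membrane, was at 98.9, 98.0 and 95.6 CPM with DMSO and at 116, 120.4 and 112 CPM under NIBR-LTSi (log2 fold change 0.25 ± 0.04, adjusted p = 0.000586). Tm7sf2, the other reductase, was at 92.3, 103 and 89.6 CPM with DMSO and at 96.0, 97.1 and 92.5 CPM under NIBR-LTSi. Its libraries overlapped, and its log2 fold change of 0.01 had a 95% confidence interval of -0.11 to 0.12, which lies below that of Lbr (0.16 to 0.35), although the difference between the genes was not tested. Exon bases of Tm7sf2 are shared with Vps51 on the same strand (12.1%) and those of Lbr with 2 other genes (10.7%).

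Of the 3 late enzymes, 1 fell, as did 19.2% of all tested genes, and the others were not called. Sc5d, a sterol desaturase, was at 303, 301 and 296 CPM with DMSO and at 260.3, 260.5 and 269 CPM under NIBR-LTSi (log2 fold change -0.19 ± 0.03, adjusted p = 0.000979). Dhcr7, the reductase that ends a branch of the pathway in cholesterol, was at 249.8, 263 and 246 CPM with DMSO and at 252, 248 and 250.4 CPM under NIBR-LTSi (log2 fold change -0.01, 95% confidence interval -0.10 to 0.07). The isomerase Ebp had a log2 fold change of 0.07 (95% confidence interval -0.04 to 0.17). Sc5d thus fell by 1.14-fold with no overlap between the groups, while for Dhcr7 and Ebp the intervals leave room for changes of at most about 0.17 on the log2 scale.

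**Figure D3:**
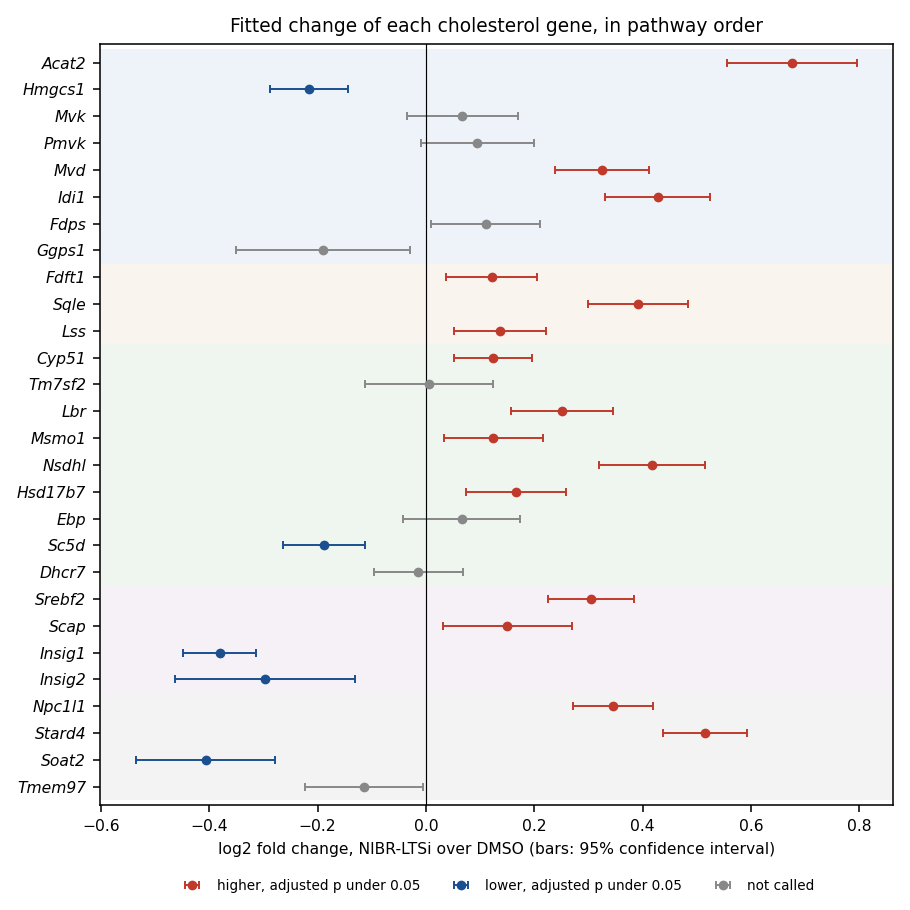
Points are the fitted log2 fold changes of the 28 genes, NIBR-LTSi over DMSO (x axis), in pathway order from top to bottom, with bars for the 95% confidence interval. Red points rose (15), blue fell (5) and grey were not called (8); the largest rise is Acat2 at 0.68 and the largest fall Soat2 at -0.41.

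In the sensing machinery all 4 genes were called, and the transcription factor and its escort moved opposite to both inhibitors. Of all tested genes 42% were called, and of the genes at or above 30.2 CPM 50.6%. Srebf2 (Entrez 20788; chromosome 15, 82147269 to 82205379), which encodes SREBP2, was at 360, 366 and 384 CPM with DMSO and at 449.5, 460.3 and 461 CPM under NIBR-LTSi (log2 fold change 0.30 ± 0.04, adjusted p = 3.78e-05). Scap was at 52.3, 50.3 and 57.3 CPM with DMSO and at 59.6, 59.8 and 58.2 CPM under NIBR-LTSi (log2 fold change 0.15 ± 0.05, adjusted p = 0.0439). Srebf2 was called in all 15 alternatives, but Scap in only 6. Scap shares 13.2% of its exon bases with 5830462I19Rik on the opposite strand, and the strand setting of the counting is not given. The Scap call was lost in DESeq2 (adjusted p = 0.149) and with DESeq2 size factors (0.0709), the replicate block (0.0612) and the width adjustment (0.0893). It was also lost without DMSO replicate 1 (0.147) or 2 (0.132) and without NIBR-LTSi replicate 1 (0.105), 2 (0.175) or 3 (0.0936).

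Insig1 (Entrez 231070; chromosome 5, 28071412 to 28078662), whose product retains the SCAP and SREBP complex in the endoplasmic reticulum and which is itself an SREBP target gene, was at 970.4, 958 and 957 CPM with DMSO and at 737, 739.9 and 739.7 CPM under NIBR-LTSi. Its log2 fold change was -0.38 ± 0.03 (adjusted p = 1.51e-06), and its libraries were the most closely replicated of the 28, with a coefficient of variation of 0.753% in DMSO and 0.230% in NIBR-LTSi. Insig2 (Entrez 72999; chromosome 1, 121304353 to 121332662), the related protein whose gene is less dependent on SREBP, was at 32.4, 36.4 and 31.3 CPM with DMSO and at 27.3, 29.1 and 24.97 CPM under NIBR-LTSi (log2 fold change -0.30 ± 0.08, adjusted p = 0.00787). Both Insig genes therefore fell with no overlap, Insig1 by 1.30-fold and Insig2 by 1.23-fold, and each call held in all 15 alternatives. Per kilobase of gene width, the level of Insig1 in DMSO was 311 ± 2 (SD, n = 3) CPM per kilobase, the highest of the 28, and that of Insig2 was 9.60 ± 0.78 CPM per kilobase.

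Of the uptake, transport and esterification genes, 2 rose, 1 fell and 1 was not called. That is 75% called, against 42% of all tested genes and 50.6% of the genes at or above 30.2 CPM. Stard4 (Entrez 170459), a cytosolic carrier that moves sterol between membranes, was at 468, 466 and 487 CPM with DMSO and at 697, 667 and 666 CPM under NIBR-LTSi (log2 fold change 0.51 ± 0.04, adjusted p = 4.15e-07). No other gene of the 28 had a smaller p. Npc1l1 (Entrez 237636; chromosome 11, 6211011 to 6230245), the brush-border importer of dietary cholesterol and the target of the drug ezetimibe, was at 675, 652 and 681 CPM with DMSO and at 835, 851 and 864 CPM under NIBR-LTSi (log2 fold change 0.35 ± 0.03, adjusted p = 6.84e-06). Npc1l1 thus rose while the summed enterocyte markers were lower in every NIBR-LTSi library, as given above.

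Soat2 (Entrez 223920; chromosome 15, 102150415 to 102163469), the enterocyte enzyme that esterifies absorbed cholesterol, was at 149.6, 141 and 144 CPM with DMSO and at 98.8, 112 and 117 CPM under NIBR-LTSi. This was the largest fall of the 28 (log2 fold change -0.41 ± 0.06, adjusted p = 0.000187), with NIBR-LTSi replicate 1 the lowest library. The 8 enterocyte markers, of which 6 fell and 2 rose, had a median log2 fold change of -0.42. The part of that shift in the fall of Soat2 was not tested. Tmem97, an endoplasmic reticulum protein known as the sigma-2 receptor, was at 184, 204 and 183 CPM with DMSO and at 184, 171 and 173 CPM under NIBR-LTSi (log2 fold change -0.11 ± 0.05, adjusted p = 0.0867). Its groups overlapped, and it was called lower only without DMSO replicate 3 (adjusted p = 0.0486) or NIBR-LTSi replicate 1 (0.0368).

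Levels per kilobase of gene width (TMM-normalised CPM divided by the deposited width, so that genes can be compared) spanned a wide range in DMSO. After Insig1 came Hmgcs1 (162 ± 2), Npc1l1 (149.8 ± 3.4), Tmem97 (139 ± 9), Fdps (137 ± 7) and Cyp51 (135 ± 2 CPM per kilobase; SD, n = 3), of which Tmem97, Fdps and Cyp51 did not differ beyond their spread. The lowest levels were those of Ggps1 (7.31 ± 0.59), Insig2 (9.60 ± 0.78) and Scap (10.2 ± 0.7 CPM per kilobase), and those of the last 2 lay within their spread of each other. These orders depend on the width: the deposited width differs from the GENCODE M21 exon length for Fdps, Fdft1, Tm7sf2, Dhcr7 and Scap. With the GENCODE length, an alternative chosen after seeing the data, the DMSO level of Fdps was 67.7 ± 3.5 CPM per kilobase, well below Cyp51. That of Scap was 7.16 ± 0.49 CPM per kilobase, within its spread of Ggps1. With NIBR-LTSi, Insig1 stayed highest at 239 ± 1 CPM per kilobase, followed by Npc1l1 (190.3 ± 3.2), while Hmgcs1 (139 ± 3) was below Cyp51 (147 ± 3).

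Summed over each role group, the levels separated the groups of libraries in all 5 cases, with the deposited widths as given here and with the GENCODE lengths. The mevalonate steps summed to 513 to 533 CPM per kilobase with DMSO and 551 to 575 with NIBR-LTSi. The squalene steps summed to 120 to 126 and 141 to 144 CPM per kilobase, and the lanosterol steps to 467 to 487 and 503 to 513. The sensing group, dominated by Insig1, went the other way, from 381 to 383 down to 320.1 to 323 CPM per kilobase, and the uptake and transport group went from 437 to 442 up to 485 to 491. No p is given for these sums.

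**Figure D4:**
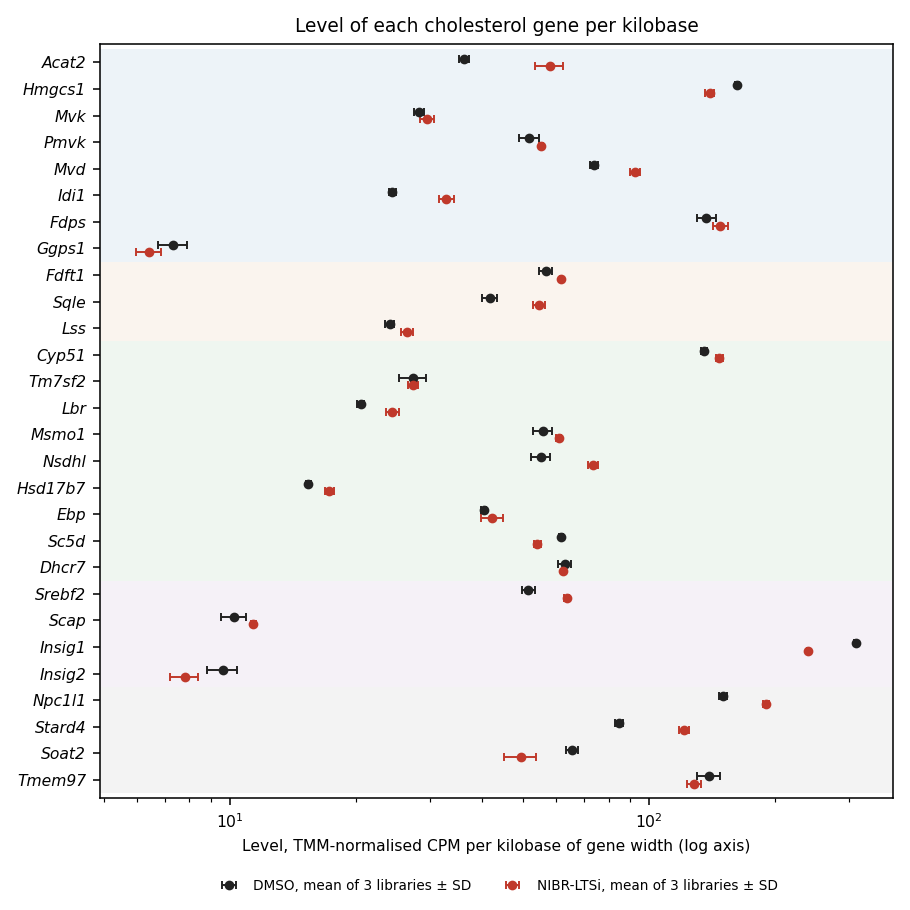
Points are mean levels of the 28 genes in TMM-normalised CPM per kilobase of gene width (x axis, log scale) for DMSO (black) and NIBR-LTSi (red), with bars for the SD over 3 libraries. Levels run from 6.40 for Ggps1 with NIBR-LTSi to 311 for Insig1 with DMSO, and the distance between the colours is small beside the distance between genes.

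The 28 genes replicated closely. Their coefficient of variation over the 3 libraries had a median of 2.90% in DMSO and 2.64% in NIBR-LTSi, against 4.09% and 3.38% over the 5858 genes at or above 30.2 CPM. Those genes share only the lower cut with the 28 and were not matched to them for level. The part of level in this difference was not tested. Within the groups the coefficient of variation of the 28 reached 8.13% in DMSO (Ggps1) and 8.54% in NIBR-LTSi (Soat2). The median over the 28 of log2 CPM relative to the DMSO mean was -0.02, 0.01 and -0.02 across the DMSO libraries and 0.13, 0.13 and 0.11 across the NIBR-LTSi libraries, so that no library of either group crossed into the other.

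The neighbouring gene lists were read from the same fit. Mevalonate products also feed dolichol, ubiquinone and haem A synthesis and the farnesylation and geranylgeranylation of proteins, and of 15 genes of these uses 1 rose, 1 fell and 13 were not called (13.3% called, against 42% of all tested genes), with a median log2 fold change of 0.06. Pdss1, which with Pdss2 makes the side chain of ubiquinone, was the gene that fell: it was at 137, 135 and 128 CPM with DMSO and at 93.1, 94.0 and 93.5 CPM under NIBR-LTSi (log2 fold change -0.51 ± 0.04, adjusted p = 1.71e-06). Its partner Pdss2, named after its value was seen, was not called (log2 fold change 0.14 ± 0.07, adjusted p = 0.123). Zmpste24, the protease that processes farnesylated prelamin A, was the gene that rose (log2 fold change 0.25 ± 0.06, adjusted p = 0.00316).

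A list of 26 genes covered sterol traffic, esterification, efflux and turnover, and also held 2 lipid enzymes outside those roles, Acss2 and Fads1. Of these 26, 24 were tested (Gramd1a and Abcg1 had too few counts), and 4 rose, 11 fell and 9 were not called (62.5% called, against 42% of all tested genes, with 22.8% higher and 19.2% lower), with a median log2 fold change of -0.11. Those that rose were Acss2, which makes acetyl-CoA from acetate (145, 149 and 142 CPM with DMSO; 193, 188 and 194 CPM under NIBR-LTSi; log2 fold change 0.40 ± 0.04, adjusted p = 7.02e-06), a fatty acid desaturase, Fads1 (1.30-fold), the lipoprotein receptor Scarb1 (1.59-fold) and the lysosomal lipase Lipa (1.10-fold). The Lipa call was lost in DESeq2 (adjusted p = 0.110) and with DESeq2 size factors (0.0674) and the width adjustment (0.237). It was also lost without DMSO replicate 1 (0.0635) or 3 (0.0809) and without NIBR-LTSi replicate 1 (0.134), 2 (0.0866) or 3 (0.0587).

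The falls with the smallest p in that list were in the sterol transfer gene Gramd1b (log2 fold change -0.54 ± 0.06, adjusted p = 1.62e-05), the oxysterol receptor LXR alpha gene Nr1h3 (-0.50 ± 0.06, adjusted p = 3.03e-05), the second cholesterol esterifying enzyme Soat1 (-0.62 ± 0.07, adjusted p = 3.47e-05) and Pgrmc1, a haem-binding partner of Cyp51 (-0.28 ± 0.04, adjusted p = 7.63e-05). Soat1 was at 26.5, 27.3 and 29.9 CPM with DMSO and at 19.6, 17.2 and 17.7 CPM under NIBR-LTSi, so both genes for cholesterol esterification fell with no overlap between the groups. The proteases that release SREBP in the Golgi, Mbtps1 and Mbtps2 (chosen once their values were known), missed the threshold (log2 fold changes of 0.00 and 0.14, with 95% confidence intervals of -0.10 to 0.10 and 0.01 to 0.27).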

How the data were processed

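RNA sequencing of 6 libraries was analysed. Per the labels' protocols, organoids were dissociated to single cells, column-purified total RNA was used, 200 ng of it in a stranded mRNA kit. The authors deposited 1 table of raw read counts per gene with Entrez identifiers, symbols and gene widths; 23 of the 28 widths equal the GENCODE M21 exon length. Per the submitters' processing notes the build was mm10 and edgeR was used. For the aligner, the counting tool and the use of strand, the entry is "not given in the sources used here", and 10 of the 28 genes share exon bases with another gene in GENCODE M21.

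Counts were normalised with TMM and filtered with filterByExpr (12592 of 24594 genes kept), and tested on all genes with edgeR 4.0.16 (R 4.3.3): robust quasi-likelihood F-test, two-sided, group as the only term, 4 residual degrees of freedom, Benjamini-Hochberg adjustment, threshold 0.05. Positive log2 fold changes mean higher with NIBR-LTSi. The SE is the absolute log2 fold change over the square root of F. The procedure was tested on simulated data with changes of at least 1.5-fold, so that test did not cover smaller changes. No 2 libraries of a group agreed within sampling noise (chi-square per degree of freedom 4.65 to 11.9).

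All 28 genes are named, with values per library for those called and for the sensing genes; from the 2 other lists, up to 4 called genes per direction with the smallest p. Members and lists were chosen with earlier results of these data known, and they do not cover every gene of the pathway. The values of 1 gene of the sterol traffic list are not reported here. Positions come from RefSeq, GRCm38.p6, the assembly of mm10. Alternatives were DESeq2 1.42.0, limma-voom (limma 3.58.1), scaling by upper-quartile factors, by DESeq2 size factors or by library totals alone, no low-count filter, at least 1 CPM in 3 libraries, a replicate block, a width adjustment and leaving out each library.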

Additional observations from a re-analysis of the deposited data

How the results depend on the processing

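Under the 15 alternatives, 16 of the 28 genes kept their direction and their side of the threshold throughout, 6 calls were lost in at least 1 and 4 further genes were called in at least 1. The number that rose was 10 to 16 when 1 library was left out and 12 to 17 otherwise, and 5 or 6 fell; it was 10 without DMSO replicate 1, NIBR-LTSi replicate 2 or NIBR-LTSi replicate 3. Tm7sf2 and Dhcr7, uncalled and near 0, changed sign in some settings. The log2 fold change of Tm7sf2 was -0.0131 with DESeq2 size factors, -0.013 in DESeq2, and -0.0343 to 0.0652 with 1 library left out (negative without DMSO replicate 1, DMSO replicate 3, NIBR-LTSi replicate 1 or NIBR-LTSi replicate 2). That of Dhcr7 was 0.0307 with library totals only, and -0.0342 to 0.0144 with 1 library left out (positive without DMSO replicate 2). Of the isoprenoid-use genes, 3 rose with library totals only, and with 1 library left out 1 to 2 rose and 1 to 2 fell (2 and 2 without DMSO replicate 3). The cause was not tested. Changes of about 0.1 on the log2 scale are at the limit of what 3 libraries per group resolved here.

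The groups share replicate numbers, and same-numbered libraries did not deviate together throughout: the correlations across genes were 0.048, -0.296 and 0.562 for numbers 1 to 3. DMSO replicate 2 correlated at up to 0.528 with an NIBR-LTSi library of another number, and DMSO replicate 3 at most 0.218. With 3 libraries per group, each centred on its group mean, these correlations constrain each other. They cannot decide whether libraries were paired or shared a batch across the groups. With the replicate block, 14 of the 28 genes rose and 6 fell.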

Other observations

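The genes below were named after their values were seen, so they do not stand for sterol sensing or export as a whole. Abcg8 and Abcg5, which together pump sterol back into the gut lumen, were at 391, 372 and 384 CPM and at 350.0, 339 and 337 CPM with DMSO, and at 318, 325 and 322 CPM and at 283, 309 and 317 CPM under NIBR-LTSi. Their log2 fold changes were -0.25 ± 0.03 (edgeR adjusted p = 0.000118) and -0.17 ± 0.04 (adjusted p = 0.00771; 0.0506 with library totals only), so the exporter genes fell while the importer gene Npc1l1 rose. Nr1h2, the gene of the other LXR receptor, was at 95.3, 86.5 and 85.8 CPM with DMSO and at 67.5, 76.2 and 74.1 CPM under NIBR-LTSi (log2 fold change -0.30 ± 0.06, adjusted p = 0.0015). Abca1, another LXR target, was not called and overlapped between the groups (log2 fold change 0.49, 95% confidence interval -0.03 to 0.997).

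Among genes of endoplasmic reticulum proteins that take part in sterol-regulated protein degradation, Erlin2 fell by 0.12 and Rnf139 fell by 0.18 on the log2 scale (edgeR adjusted p = 0.0184 and 0.0299). The Erlin2 call was lost with library totals only (adjusted p = 0.0967) and without NIBR-LTSi replicate 2 (0.0761). The Rnf139 call was lost with library totals only (0.0904) and on leaving out NIBR-LTSi replicate 2 (0.104) or either of DMSO replicates 2 and 3 (0.0762 and 0.0821). Their relatives Erlin1 and Rnf145 were not called (adjusted p = 0.0810 and 0.115). The sterol transfer gene Gramd1c fell like Gramd1b (log2 fold change -0.44 ± 0.08, adjusted p = 0.000988), while the lysosomal exporters Npc1 and Npc2 had log2 fold changes of -0.02 (95% confidence interval -0.17 to 0.12) and 0.02 (-0.06 to 0.11).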
